A study of Arabidopsis thaliana with 72 samples.

Results

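The C-repeat binding factors (CBF, also named DREB1) and the cold-regulated genes they act on were followed in the leaves of 2 *Arabidopsis thaliana* demes under high pH and bicarbonate. The set was defined by gene identity and not by a measured value, though with earlier results of these data known. It holds 7 genes: CBF1 (AT4G25490), CBF2 (AT4G25470), CBF3 (AT4G25480), COR15A (AT2G42540), COR15B (AT2G42530), COR47 (AT1G20440) and KIN1 (AT5G15960). Of these, 6 are among the 18603 genes with values, and CBF1 is not analysed here.

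A1(c+) is a deme from soil near carbonate rock and tolerates alkaline conditions, whereas T6(c-) comes from siliceous soil and is sensitive. Plants of 15 days, grown on hydroponics at 25 °C with 12 h of light, were kept at pH 5.9 (the control), moved to pH 8.3 held by an organic buffer, or moved to pH 8.3 with 10 mM NaHCO3 (bic). Seeds were held in the cold and dark to synchronise germination before growth, and no cold treatment of the plants was part of the design. Harvests at 3 h and 48 h give 12 groups of 2 biological replicates, each a column of values with 3 technical replicates summed. The methods state that 12 plants per line and treatment were pooled, and they name 3 biological replicates in one place and 2 in another, so how far the 2 columns of a group are independent is not known.

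CBF1, CBF2 and CBF3 are AP2/ERF transcription factors encoded side by side on chromosome 4. They rise within hours of cold and bind the C-repeat/dehydration-responsive element, whose core is CCGAC, in the promoters of genes such as COR15A. The circadian clock also sets their level over the day. The COR and KIN genes are outputs of this pathway. COR15A and COR15B encode small hydrophilic proteins of the chloroplast stroma that protect membranes in freezing, COR47 encodes a dehydrin, and KIN1 encodes a small hydrophilic protein that is also induced by abscisic acid.

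The reference sequence before the annotated start of COR15A and KIN1 is shown first, since these are the 2 members called for bic when demes and times are averaged. Capitals mark CCGAC (the C-repeat core) and ACGTG (the core of the abscisic acid-responsive element), each on either strand, and the 2 motifs do not overlap. Sequences are those of Col-0 in RefSeq TAIR10.1 and run 5′ to 3′ on the strand of the gene, with the last base of the first 2 just before the gene start (COR15A chr2:17712331-17712530, minus strand, and KIN1 chr5:5209517-5209716, plus strand).
COR15A: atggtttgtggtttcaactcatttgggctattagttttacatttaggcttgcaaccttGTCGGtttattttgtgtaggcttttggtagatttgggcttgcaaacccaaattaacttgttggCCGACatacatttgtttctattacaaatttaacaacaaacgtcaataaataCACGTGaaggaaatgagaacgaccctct
KIN1: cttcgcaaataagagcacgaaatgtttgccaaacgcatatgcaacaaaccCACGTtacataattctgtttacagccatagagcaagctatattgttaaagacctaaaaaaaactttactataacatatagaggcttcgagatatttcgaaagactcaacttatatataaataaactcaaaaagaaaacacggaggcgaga

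Within 500 bases before the annotated start, COR15A had 2 CCGAC cores, at -142 and -79, and the palindrome CACGTG at -28 matched ACGTG on both strands. COR15B and COR47 each had 1 CCGAC core, at -265 and -368, shown here with the core in capitals. KIN1, CBF2 and CBF3 had none in this window. KIN1 had 1 ACGTG core, at -150, CBF3 had 1, at -258, and CBF2 had a CACGTG palindrome. Of 27443 protein-coding genes, 21.4% had at least 1 CCGAC core in a window of this length, 3.74% had 2 or more, and 35.5% had ACGTG. These are letter matches and not tested sites, the annotated 5′ untranslated regions were not searched, and the demes' own sequences were not analysed here.
COR15B: tatcatctagaaGTCGGtatgccacacca
COR47: ttggtatcatgtGTCGGtagagtgaccac

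The COR15B stretch (chr2:17710682-17710710, minus strand) lies inside the annotated span of its neighbour COR15A, and the COR47 stretch (chr1:7087225-7087253, minus strand) lies in no annotated protein-coding gene. The close neighbours matter for the values too. CBF2 and CBF3 are tandem copies, COR15A and COR15B adjoin each other, KIN1 adjoins its tandem copy KIN2 on chromosome 5, and COR47 lies beside ERD10, a dehydrin of the same family. Reads were not counted by strand, and reads that could belong to either copy make the split between such neighbours uncertain.

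Values are CPM, the reads of a gene relative to the total of its library, taken back from the deposited log2 values, with library totals of 63.5 to 120.6 M reads. A gene counts as called (a DEG) where limma gave an adjusted p under 0.05 and the log2 fold change was above 1 or below -1. In 117 genes that separate the demes at pH 5.9, the column labelled A1(c+) bic 3 h replicate 2 was nearer to A1(c+) in 62 and to T6(c-) in 55, the column labelled T6(c-) pH 8.3 48 h replicate 1 was nearer to T6(c-) in only 58, and the column labelled A1(c+) pH 8.3 48 h replicate 1 was nearer to A1(c+) in 111. In 4 more T6(c-) columns, both under bic at 48 h among them, 27 to 46 of the genes were nearer to A1(c+). The first 3 columns are those whose genotype is in doubt, and results are given with all columns as labelled and, where a call changes, without these 3. Leaving them out keeps 1 column in each of A1(c+) bic 3 h, A1(c+) pH 8.3 48 h and T6(c-) pH 8.3 48 h, which is then assumed to vary like the other groups. Of 192 member results, 14 changed direction without them. None of the 14 was called with all columns and 2 were called without the 3, CBF2 for pH 8.3 in A1(c+) and COR47 between demes at pH 8.3, both at 48 h. The others lay in CBF2 (5 results), COR15B (3), COR47 (3) and CBF3 (1), for example CBF2 for pH 8.3 in T6(c-) at 48 h, from 0.65 to -1.68, and CBF3 for pH 8.3 in A1(c+) at 48 h, from 1.02 to -0.52. The 2 columns of T6(c-) at pH 5.9 were much closer to each other than any other pair, with a dispersion index (the median over genes of the squared difference between the pair, scaled so that sampling noise alone gives 1) of 1.65 at 3 h and 2.05 at 48 h against 9.66 to 165 elsewhere. The summed level of 7 leaf marker genes lay between 11342 and 46437 CPM, while root and meristem markers were low (at most 508.6 CPM over the 3 root genes and 37.2 CPM over the 2 meristem genes). The root maximum was in T6(c-) bic 48 h replicate 2, with 184 CPM in replicate 1 and 143 and 146 CPM at pH 5.9, and the meristem maximum was in the column in doubt of A1(c+) pH 8.3 48 h, with 1.21 CPM in the other column. Their part in the results of these groups was not tested.

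**Figure D1:**
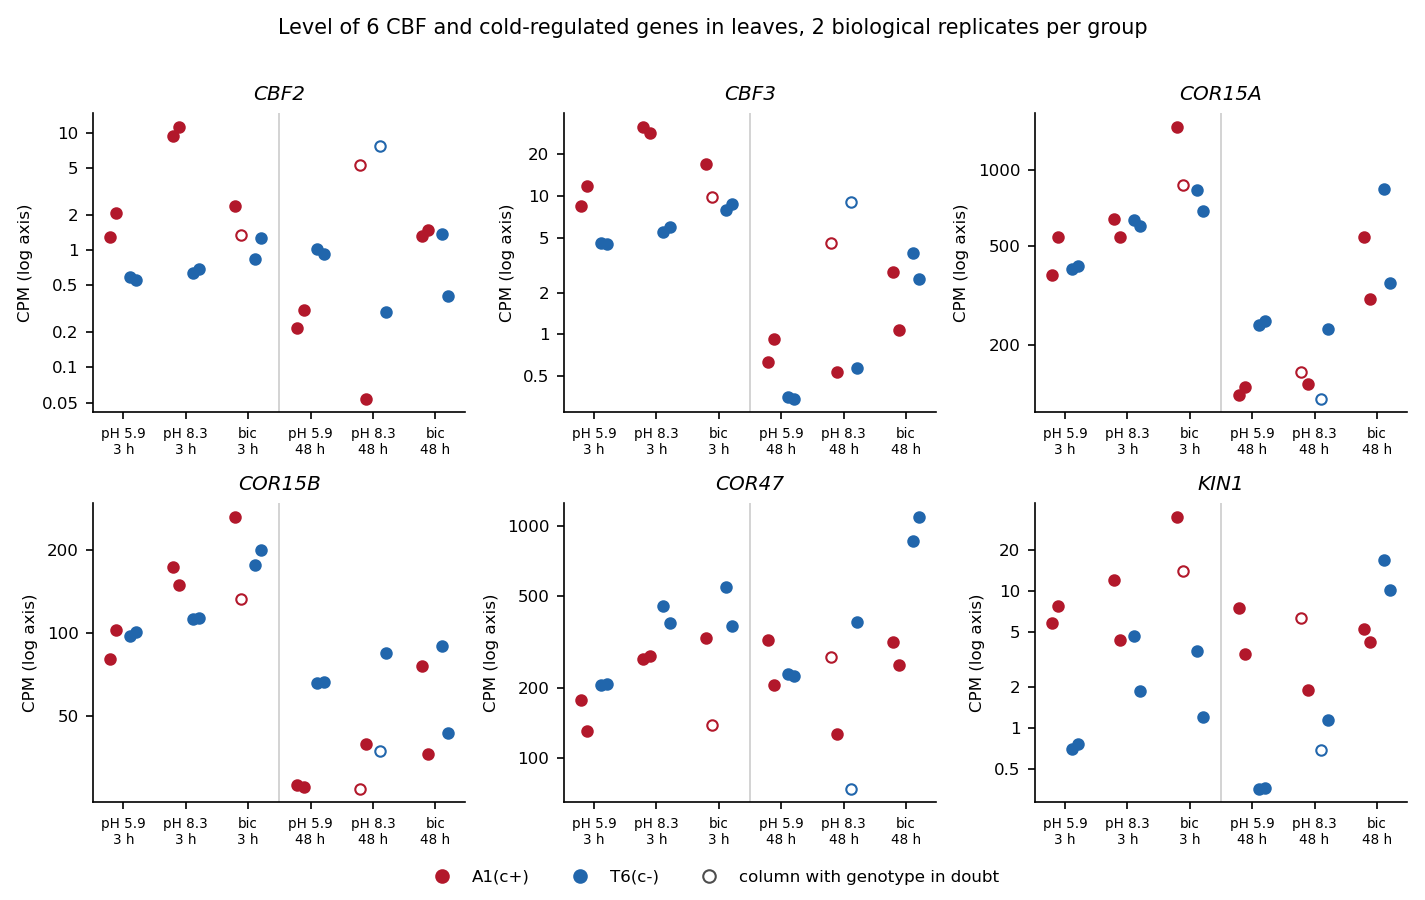
Level of each of the 6 measured genes in CPM (log axis) by treatment and time, with A1(c+) in red, T6(c-) in blue, 1 point per biological replicate and open points for the 3 columns whose genotype is in doubt. COR15A and COR15B lay higher at 3 h than at 48 h in most conditions, CBF3 fell from 10.1 to 0.781 CPM on average in A1(c+) at pH 5.9, and KIN1 in T6(c-) stood highest under bic at 48 h.

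Per kilobase of annotated exon, COR15A was the most abundant member (median over the 24 columns 259 CPM per kb), followed by COR47 (116), COR15B (55.2), KIN1 (5.20), CBF3 (3.28) and CBF2 (1.16). Even the lowest CBF2 value, 0.0542 CPM, rests on 5 reads, so CBF2 is read from few molecules in the low columns while COR15A always had at least 11766 reads. Leaves of these plants thus carried COR15A transcripts in every column.

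The CBF factors come first. CBF2 stood at 1.30 and 2.06 CPM in the 2 columns of A1(c+) at pH 5.9 after 3 h, at 9.31 and 11.3 CPM at pH 8.3, and at 2.38 and 1.35 CPM under bic. In T6(c-) at the same time it read 0.592 and 0.559 CPM at pH 5.9, 0.644 and 0.696 CPM at pH 8.3, and 0.838 and 1.26 CPM under bic. So A1(c+) at pH 8.3 for 3 h held the highest group mean of CBF2, apart from every other group in range, and no T6(c-) column at 3 h reached the lowest A1(c+) column. After 48 h, A1(c+) had 0.219 and 0.311 CPM at pH 5.9 and 1.32 and 1.47 CPM under bic. T6(c-) then had 1.02 and 0.933 CPM at pH 5.9 and 1.38 and 0.407 CPM under bic. At pH 8.3 for 48 h the columns in doubt stood alone, with 5.34 CPM against 0.0542 CPM in the other A1(c+) column and 7.69 CPM against 0.299 CPM in the other T6(c-) column.

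CBF3 stood at a higher level than CBF2 in every group at 3 h, and its layout was alike only in part. At pH 5.9 for 48 h, CBF2 was lower and CBF3 higher in A1(c+) than in T6(c-). A1(c+) after 3 h had 8.41 and 11.7 CPM at pH 5.9, 31.6 and 28.4 CPM at pH 8.3, and 17.0 and 9.85 CPM under bic. T6(c-) had 4.56 and 4.47 CPM at pH 5.9, 5.46 and 5.95 CPM at pH 8.3, and 7.94 and 8.69 CPM under bic. Again A1(c+) at pH 8.3 was highest and lay apart from all other groups. After 48 h the values in A1(c+) were 0.628 and 0.933 CPM at pH 5.9, 4.57 (in doubt) and 0.531 CPM at pH 8.3, and 2.80 and 1.08 CPM under bic. The T6(c-) columns read 0.351 and 0.343 CPM at pH 5.9, 8.97 (in doubt) and 0.567 CPM at pH 8.3, and 3.85 and 2.49 CPM under bic. In both demes the 48 h columns under bic lay above both pH 5.9 columns. Across the 24 columns CBF2 and CBF3 had a Pearson r of 0.69 on log2 values, a description of columns that share their groups and possibly reads.

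The same order of treatments did not hold for the COR genes. COR15A in A1(c+) after 3 h was 383 and 541 CPM at pH 5.9, 642 and 539.8 CPM at pH 8.3, and 1495 and 874 CPM (the latter in doubt) under bic. T6(c-) had 404 and 416 CPM, 634 and 602 CPM, and 837 and 689 CPM in the same order. Both demes were thus highest under bic at this time, in all 4 columns. After 48 h the values in A1(c+) were 127 and 137 CPM at pH 5.9, 156 (in doubt) and 140.3 CPM at pH 8.3, and 544 and 307 CPM under bic. T6(c-) had 241 and 249 CPM, 123 (in doubt) and 233 CPM, and 843 and 355 CPM. In every deme and time, both bic columns of COR15A exceeded both pH 5.9 columns. COR15B, its neighbour, ranged from 27.4 to 264 CPM and had an r of 0.89 with COR15A over the 24 columns. Its 48 h values under bic overlapped the pH 5.9 values in T6(c-) (90.0 and 43.5 CPM against 65.9 and 66.3 CPM) but not in A1(c+) (76.1 and 36.5 CPM against 28.2 and 27.8 CPM).

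COR47 was highest in T6(c-) after 48 h of bic, at 861 and 1100.5 CPM, apart from all other groups, whose columns ran from 73.6 to 544 CPM. The T6(c-) control columns at 48 h had 229.8 and 225 CPM. A1(c+) at 48 h had 324 and 206 CPM at pH 5.9 and 315 and 251 CPM under bic, so its groups overlapped. KIN1 had the widest range among the COR and KIN genes. In A1(c+) it read 5.87 and 7.80 CPM at pH 5.9, 12.1 and 4.42 CPM at pH 8.3 and 34.9 and 14.1 CPM (the latter in doubt) under bic after 3 h. After 48 h it read 7.51 and 3.49 CPM, 6.40 (in doubt) and 1.89 CPM, and 5.30 and 4.21 CPM. T6(c-) started far lower, at 0.698 and 0.760 CPM at pH 5.9 after 3 h, with 4.70 and 1.87 CPM at pH 8.3 and 3.63 and 1.20 CPM under bic. At 48 h it had 0.361 and 0.364 CPM at pH 5.9, 0.688 (in doubt) and 1.15 CPM at pH 8.3, and 16.7 and 10.1 CPM under bic. In T6(c-) at 48 h, both bic columns therefore lay above all 4 columns of the other treatments.

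In the order of the 12 group means, neighbouring groups mostly overlapped. Of 11 neighbouring pairs, the replicate ranges lay apart in 5 for CBF3 and COR15A, 4 for CBF2, 3 for COR15B and COR47, and 2 for KIN1. The top group lay apart from the next one for CBF2 and CBF3 (A1(c+) pH 8.3 3 h), COR15A (A1(c+) bic 3 h) and COR47 (T6(c-) bic 48 h), but not for COR15B or KIN1.

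Which members responded to bic was asked in each deme and time. After 48 h in T6(c-), 4 of the 6 members rose and none fell, against 18.9% of all genes called, with a median log2 fold change of 1.63 for the members and 0.30 for all genes. KIN1 rose most, by 5.15 ± 0.70 on the log2 scale (a standard error, as are all errors beside a fold change; 35.4-fold; adjusted p = 8.29e-05 with limma). COR47 rose by 2.1 ± 0.58 (4.28-fold; adjusted p = 0.0103), CBF3 by 3.14 ± 1.00 (8.81-fold; adjusted p = 0.0217) and COR15A by 1.16 ± 0.38 (2.23-fold; adjusted p = 0.0259). COR15B (-0.08 ± 0.42) and CBF2 (-0.38 ± 1.55) did not pass the test. With median-ratio scaling of the columns COR15A was at 0.86 (adjusted p = 0.107) and no longer called. Without bic replicate 1 it was at 0.53 (adjusted p = 0.318), and it was also lost without either pH 5.9 column (adjusted p = 0.0900 and 0.102). CBF3 lost its call without any of the 4 columns compared (highest adjusted p 0.104) and COR47 without pH 5.9 replicate 2 or bic replicate 2 (highest adjusted p 0.0664), while KIN1 kept it without any single one of the 24 columns. With each time fitted separately COR47 (adjusted p = 0.0528), COR15A (0.0869) and CBF3 (0.110) were not called, and with only the groups compared COR15A was not (0.0983). With a pseudocount of 1 CPM CBF3 was at 1.61 (adjusted p = 0.0616) and KIN1, which is under 1 CPM in the controls, at 3.37 (adjusted p = 0.000322). Without the columns in doubt, none of which is in this comparison, the same 4 members were called, against 22.9% of genes.

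In the other 3 settings of bic against pH 5.9 no member was called, against 0.0161% of genes in A1(c+) at 3 h, 0.333% in A1(c+) at 48 h and 0% in T6(c-) at 3 h. All 6 members had a positive log2 fold change at 3 h in both demes (medians 0.76 for A1(c+) and 0.91 for T6(c-), where all genes had -0.19 and -0.07), and at an unadjusted p under 0.05 there were 3 members in each deme, beside 2967 and 1615 of all genes. This sign was not particular to bic. For pH 8.3 against pH 5.9 at 3 h all 6 were positive in both demes too (medians 0.83 and 0.46). For bic against pH 8.3 at 3 h, 3 were positive in A1(c+) (median -0.06) and 5 in T6(c-) (median 0.42). COR15A in A1(c+) had log2 fold changes of 1.33 ± 0.38 at 3 h and 1.63 ± 0.38 at 48 h (adjusted p = 0.116 and 0.0582). Without the 3 columns in doubt, more genes of all kinds were called (5.31%, 3.2% and 1.6% in these 3 settings). COR15A (1.71 ± 0.42, adjusted p = 0.0248), COR15B (1.54 ± 0.40, adjusted p = 0.0306) and COR47 (1.11 ± 0.29, adjusted p = 0.0313) were then higher in A1(c+) at 3 h, where the remaining bic column stands alone and is assumed to vary like the other groups. COR15A (1.63 ± 0.34, adjusted p = 0.0132) and CBF2 (2.40 ± 0.47, adjusted p = 0.0102) were then higher in A1(c+) at 48 h, and COR47 in T6(c-) at 3 h (1.12 ± 0.24, adjusted p = 0.0259). Averaged over demes and times with all columns, COR15A (1.25 ± 0.19, adjusted p = 0.000587) and KIN1 (2.06 ± 0.35, adjusted p = 0.0011) rose under bic, against 2.27% of genes called. In the fit without the columns in doubt CBF3 (1.49 ± 0.20, adjusted p = 0.000152) and COR47 (1.11 ± 0.13, adjusted p = 6.57e-05) were called as well, against 4.2% of genes. No member was called for pH 8.3 averaged in the same way, where 0.086% of genes were called. There 1 member had an unadjusted p under 0.05, beside 3260 of all genes. CBF2 then turned from 1.15 to -0.24 without the columns in doubt.

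**Figure D2:**
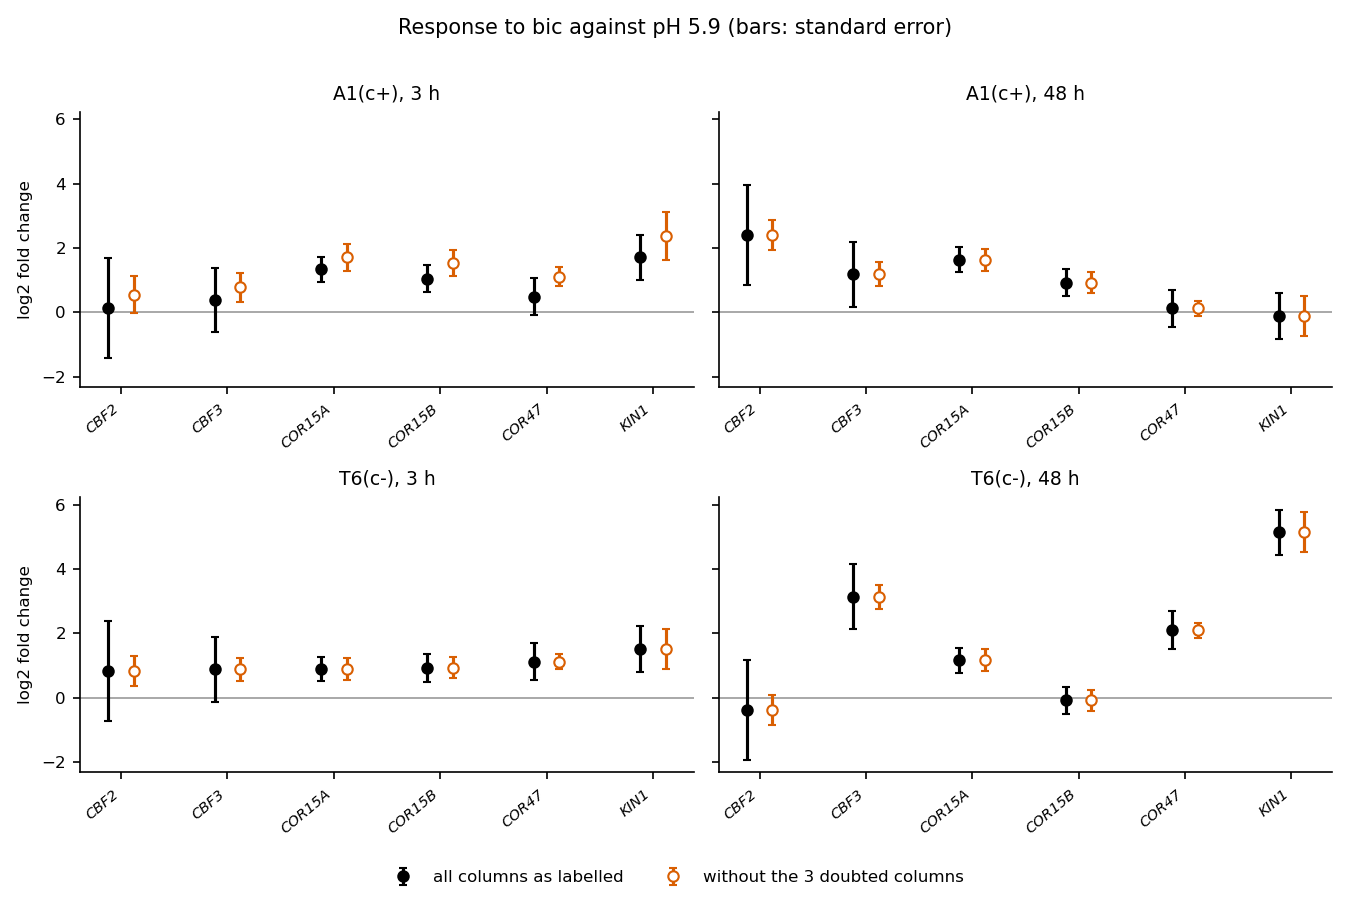
Log2 fold change of bic against pH 5.9 (vertical axis) for the 6 genes in each deme and time, with standard errors, for all columns as labelled (filled) and without the 3 columns in doubt (open). KIN1 in T6(c-) at 48 h is the largest at 5.15, while KIN1 in A1(c+) at 48 h lies at -0.12.

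For pH 8.3 against pH 5.9, no member passed the test in any of the 4 settings, where the genes called were 2.13% and 1.03% for A1(c+) at 3 h and 48 h and 0% and 0.156% for T6(c-). An unadjusted p under 0.05 was reached by 1 member at each time in T6(c-), KIN1 at 3 h and CBF3 at 48 h, and by none in A1(c+). Of all 18603 genes, 1808 and 2874 reached it in T6(c-) at 3 h and 48 h, and 5031 and 3265 in A1(c+). The CBF levels of A1(c+) at 3 h corresponded to log2 fold changes of 2.64 ± 1.55 for CBF2 and 1.59 ± 1.00 for CBF3 (adjusted p = 0.292 and 0.327). These errors are pooled over all 12 groups and so take in the columns in doubt, none of which is in this comparison. Without the columns in doubt the same fold changes had errors of 0.47 and 0.37 and passed the test (adjusted p = 0.00229 and 0.00868), beside 7.43% of all genes. CBF2 in A1(c+) at 48 h changed direction between the fits, from 1.09 ± 1.55 (adjusted p = 0.768) to -2.16 ± 0.57 (adjusted p = 0.0449, against 3.6% of genes), with only the column at 0.0542 CPM left. COR47 in T6(c-) at 3 h was then called at 1.00 ± 0.24 (adjusted p = 0.0338, against 1.7% of genes), and in T6(c-) at 48 h, with 1 column left at pH 8.3, no member was called.

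How bic differed from the same pH without bicarbonate was asked with the same bic columns, so that these comparisons share them with those above. In T6(c-) at 48 h, KIN1 (3.86 ± 0.70, adjusted p = 0.000738), COR47 (2.53 ± 0.58, adjusted p = 0.00338) and COR15A (1.69 ± 0.38, adjusted p = 0.00302) were higher under bic, against 20.4% of genes called. With only the groups compared COR47 (adjusted p = 0.125) and COR15A (0.122) were not called and KIN1 was (0.0351). In A1(c+) at 48 h COR15A was higher (1.46 ± 0.38, adjusted p = 0.0253), against 4.59% of genes. That call was lost without pH 8.3 replicate 2 or either bic column (highest adjusted p 0.116), with only the groups compared (0.605) and with each time fitted separately (0.142). At 3 h no member was called, with 0.0215% and 0% of all genes called. An unadjusted p under 0.05 was reached by 2 members in A1(c+) and 0 in T6(c-), beside 2499 and 954 of all genes. Without the columns in doubt again no member was called, beside 0.317% of genes in T6(c-). Without the columns in doubt COR47 was at 1.33 ± 0.29 in T6(c-) at 48 h (adjusted p = 0.00303, against 23.6% of genes), CBF3 was also called there (2.43 ± 0.45, adjusted p = 0.00122), and in A1(c+) at 48 h CBF2 (4.56 ± 0.57, adjusted p = 0.000739), CBF3 (1.70 ± 0.45, adjusted p = 0.0148) and COR47 (1.15 ± 0.29, adjusted p = 0.0117) joined COR15A, against 11.7% of genes. The pH 8.3 arm of both demes is then 1 column, in which CBF2 of A1(c+) rests on 5 reads, and the spread is taken from other groups.

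Among the members called between demes, KIN1 had the largest differences. It was higher in A1(c+) than in T6(c-) at pH 5.9 after 3 h (3.21 ± 0.70 on the log2 scale, 9.24-fold, adjusted p = 0.013, against 4.73% of genes called) and after 48 h (3.80 ± 0.70, 13.9-fold, adjusted p = 0.0055, against 7.65%), and under bic after 3 h (3.40 ± 0.70, 10.6-fold, adjusted p = 0.0121, against 4.24%). No A1(c+) column overlapped a T6(c-) column in these 3 conditions. The calls were lost without A1(c+) replicate 2 or either T6(c-) column at pH 5.9 for 3 h (highest adjusted p 0.123), without A1(c+) replicate 1 or T6(c-) replicate 2 under bic (highest 0.110) and without either T6(c-) column at pH 5.9 for 48 h (highest 0.0601). With only the groups compared the bic difference was not called (0.145). With a pseudocount of 1 CPM the 3 differences were 2.17, 2.18 and 2.86 (adjusted p = 0.0237, 0.0224 and 0.00922), for pH 5.9 at 3 h and 48 h and for bic. Over all 6 conditions the mean difference was 2.03 ± 0.29 (4.10-fold, adjusted p = 7.36e-05, against 10.4% of genes). KIN2, the tandem copy of KIN1, was higher in A1(c+) in all 3 treatments at 3 h (1.79 ± 0.35 at pH 5.9, 1.25 ± 0.35 at pH 8.3 and 1.92 ± 0.35 under bic, adjusted p = 0.00807, 0.0219 and 0.00862), with 11.3% of genes called at pH 8.3. At 48 h the KIN2 columns of the demes overlapped in all 3 treatments. At pH 5.9 they read 149 and 258 CPM in A1(c+) and 153 and 146 CPM in T6(c-). At pH 8.3 they read 111 (in doubt) and 125 CPM against 90.9 (in doubt) and 150 CPM. Under bic they read 478 and 359 CPM against 655 and 398 CPM. How reads of the 2 demes map to the Col-0 copies was not tested.

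With all columns COR47 was called between demes only under bic at 48 h. It was lower in A1(c+) there (-1.79 ± 0.58, adjusted p = 0.0425, against 10.5% of genes). In that condition KIN1 was lower in A1(c+) as well, at -1.46 ± 0.70, and not called (adjusted p = 0.149). The call of COR47 held without only 6 of the 24 single columns (highest adjusted p 0.222) and in the fit without the columns in doubt (adjusted p = 0.000185, against 17.2%). In a fit with the replicate number as a block it was at an adjusted p of 0.0510, with median-ratio scaling at 0.0697, with only the groups compared at 0.0672 and with each time fitted separately at 0.149. At pH 8.3 no member was called at either time, against 11.3% of genes called at 3 h and 0.817% at 48 h. There 2 members at 3 h and 1 at 48 h had an unadjusted p under 0.05, beside 7447 and 2552 of all genes. The 3 h difference of CBF2 and CBF3 at pH 8.3, 3.93 ± 1.55 and 2.39 ± 1.00 (adjusted p = 0.0754 and 0.0912), passed the test only without the columns in doubt (adjusted p = 8.25e-05 and 0.000451, against 16.3% of genes). In that fit CBF2 and CBF3 were also higher in A1(c+) at pH 5.9 after 3 h (1.5 ± 0.47 and 1.13 ± 0.37, adjusted p = 0.0304 and 0.0373, against 10% of genes), and at pH 5.9 after 48 h CBF3 was higher (1.13 ± 0.37, adjusted p = 0.0351) and CBF2 and COR15B lower (-1.89 ± 0.47 and -1.24 ± 0.33, adjusted p = 0.00908 and 0.0126, against 13% of genes). COR47 was then lower in A1(c+) at pH 8.3 for 48 h (-1.62 ± 0.34, adjusted p = 0.0137, against 4.85% of genes), where it stood at 0.14 ± 0.58 with all columns. That fit sets 1 column against 1, at 126 and 388 CPM, with the spread taken from other groups.

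**Figure D3:**
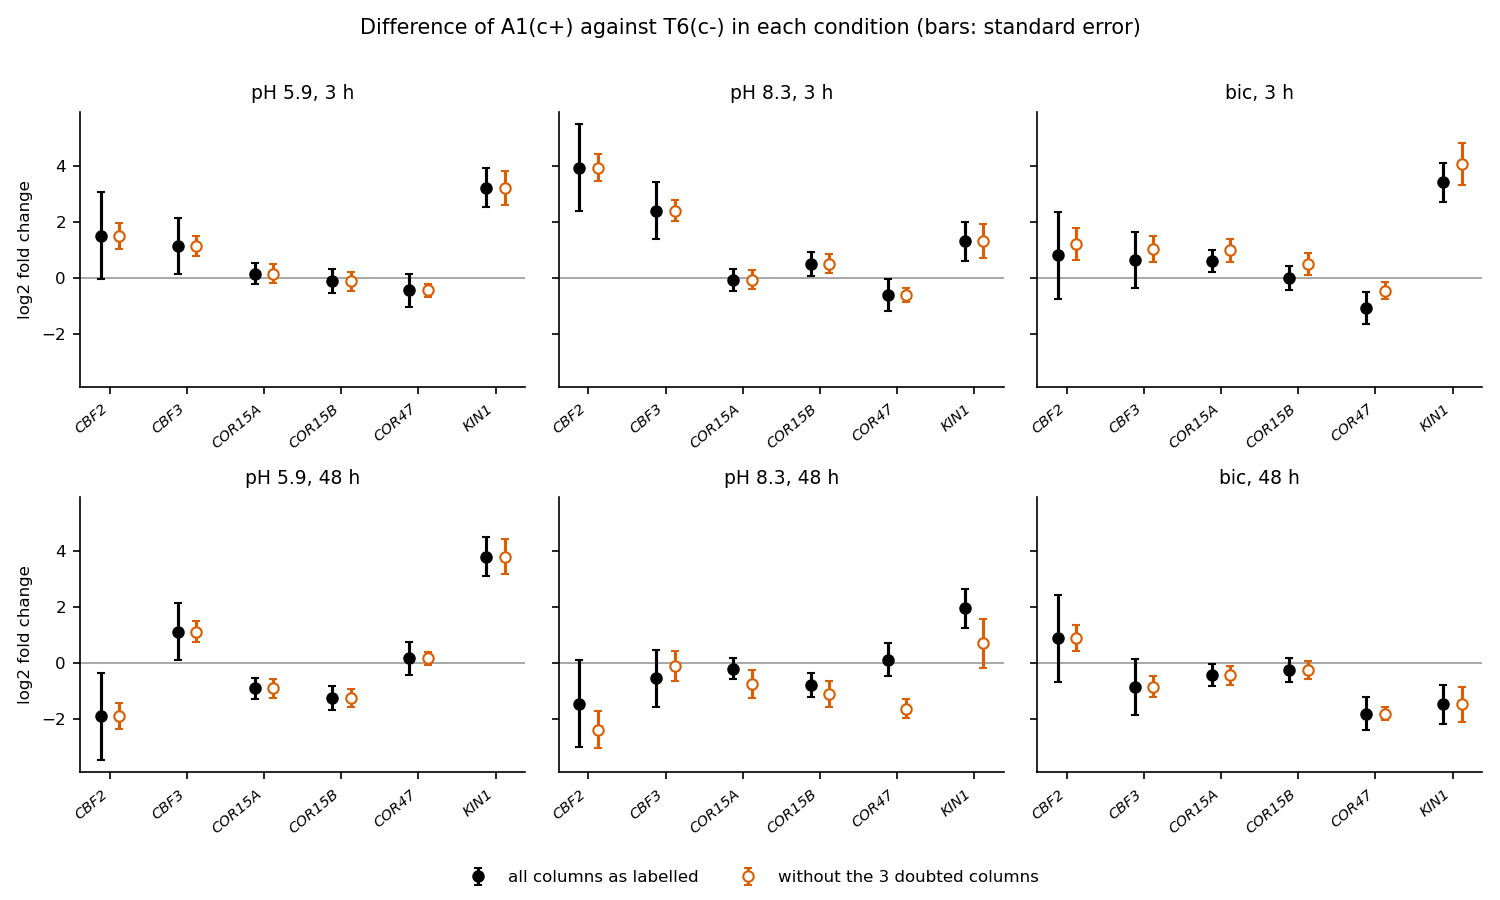
Log2 fold change of A1(c+) against T6(c-) (vertical axis) for the 6 genes in each treatment and time, with standard errors, for all columns (filled) and without the 3 columns in doubt (open). KIN1 lies above 0 in 5 of the 6 conditions and at -1.46 under bic at 48 h.

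Whether the demes responded differently to a treatment was tested as an interaction. The response of KIN1 to 48 h of bic was lower in A1(c+) than in T6(c-), with a difference of -5.26 ± 0.99 on the log2 scale (adjusted p = 0.00946, against 4.15% of genes called), and it was the only member called among the 4 interactions. In levels, KIN1 went from a mean of 0.363 ± 0.002 to 13.4 ± 4.65 CPM in T6(c-) (SD, n = 2) and from 5.5 ± 2.84 to 4.75 ± 0.77 CPM in A1(c+), so A1(c+) had the higher columns at pH 5.9 and T6(c-) under bic. The interaction kept its call without any single column, and with each time fitted separately it was at an adjusted p of 0.129. With a pseudocount of 1 CPM it was -3.48 (adjusted p = 0.0192). KIN2, the tandem copy of KIN1, read 149 and 258 CPM at pH 5.9 and 478 and 359 CPM under bic in A1(c+) at 48 h. The log2 fold change of KIN2 was 1.08 ± 0.35 there (not called), against 1.77 ± 0.35 in T6(c-). No member was called for bic at 3 h or for pH 8.3 at either time, where 0%, 0% and 0.134% of genes were called. In each, 0 members had an unadjusted p under 0.05, beside 1491, 1357 and 2345 of all genes. Without the columns in doubt, COR47 (-1.97 ± 0.34, adjusted p = 0.0021) and CBF3 (-1.96 ± 0.52, adjusted p = 0.0185) also responded less in A1(c+) after 48 h of bic and CBF2 more (2.78 ± 0.66, adjusted p = 0.0111), against 10.9% of genes, and COR47 responded less to pH 8.3 at 48 h (-1.80 ± 0.41, adjusted p = 0.0338, against 2.2% of genes), where both pH 8.3 arms are 1 column with the spread taken from other groups.

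The comparison of times held 14 of the 27 calls of members. CBF3 fell from 3 h to 48 h in A1(c+) at pH 5.9 (-3.69 ± 1.00, adjusted p = 0.0133, against 15.1% of genes called), at pH 8.3 (-4.26 ± 1.00, adjusted p = 0.00985, against 10%) and under bic (-2.89 ± 1.00, adjusted p = 0.0416, against 12.8%), and in T6(c-) at pH 5.9 (-3.68 ± 1.00, adjusted p = 0.016, against 9.22%). COR15A fell in A1(c+) by 1.79, 1.99 and 1.48 on the log2 scale at pH 5.9, at pH 8.3 and under bic (each ± 0.38, adjusted p = 0.0036, 0.00298 and 0.0101) and in T6(c-) at pH 8.3 (-1.87 ± 0.38, adjusted p = 0.00479, against 8.75%). COR15B fell in A1(c+) by 1.70, 2.29 and 1.83 (each ± 0.42, adjusted p = 0.00837, 0.00233 and 0.00535) and in T6(c-) under bic (-1.59 ± 0.42, adjusted p = 0.00803, against 21.9%). For COR15A and COR15B in A1(c+), no column at 48 h reached the 3 h column of the same treatment. KIN1 went in opposite directions under bic: it fell in A1(c+) (-2.23 ± 0.70, adjusted p = 0.0273) and rose in T6(c-) (2.64 ± 0.70, adjusted p = 0.00798), a contrast between demes that was not itself tested. COR47 was not called in any of the 6 comparisons, with log2 fold changes from -1.30 to 1.11.

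Over all 6 conditions, CBF3 (-2.88 ± 0.41, adjusted p = 3.35e-05), COR15A (-1.39 ± 0.16, adjusted p = 3.69e-06) and COR15B (-1.5 ± 0.17, adjusted p = 4.6e-06) were lower at 48 h, against 10% of genes called, and CBF2 was at -0.95 ± 0.63 (adjusted p = 0.226). Without the columns in doubt CBF2 was at -1.94 over the 6 conditions and at -2.63 ± 0.47 in A1(c+) at pH 5.9. In A1(c+) at pH 8.3 it was at -7.43, where the 48 h arm is then 1 column with 5 reads of CBF2 (0.0542 CPM). The column left out there read 5.34 CPM. In the same fit CBF3 fell in all 6 conditions, with log2 fold changes from -5.80 to -1.42. COR47 then rose in T6(c-) under bic (1.11 ± 0.24, adjusted p = 0.00186, against 25.7% of genes). In A1(c+) at pH 8.3 COR47 was at -1.10, again with 1 column at 48 h. Of the 14 calls between times with all columns, 4 held without any single column: COR15A in A1(c+) at pH 5.9, COR15A in A1(c+) at pH 8.3, COR15B in A1(c+) at pH 8.3, and COR15A in T6(c-) at pH 8.3. With only the groups compared, the last 3 of these lost their call (adjusted p = 0.0642, 0.0652 and 0.0907) and COR15A in A1(c+) at pH 5.9 kept it (0.00492). CBF3 in A1(c+) under bic held without only 7 of the 24 columns (highest adjusted p 0.233) and was not called with only the groups compared (0.0954). The other 9 were each lost without 2 to 4 of the columns compared, and 4 of them also with only the groups compared, namely CBF3 in A1(c+) at pH 8.3 (0.165) and COR15A, COR15B and KIN1 in A1(c+) under bic (0.140, 0.134 and 0.104). The columns were 3 h replicate 2 or 48 h replicate 1 for CBF3 and COR15B in A1(c+) at pH 5.9 (highest adjusted p 0.0900 and 0.0667), either 3 h column or 48 h replicate 2 for CBF3 in A1(c+) at pH 8.3 (0.0702), 3 h replicate 1 or 48 h replicate 2 for COR15A and COR15B in A1(c+) under bic (0.110 and 0.0716), and 3 h replicate 1 or either 48 h column for KIN1 there (0.168). In T6(c-) they were any of the 4 columns for CBF3 at pH 5.9 (0.0836), and under bic 3 h replicate 2 with 48 h replicate 2 for COR15B (0.114) or 48 h replicate 1 for KIN1 (0.103).

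Clock genes moved with the sampling times, and the hour of harvest is not given in the sources used here. CCA1 and LHY, the morning-expressed clock repressors, were at 92.2 to 175 and 9.0 to 36.1 CPM in the 3 h columns and at 409 to 890 and 267 to 893 CPM in the 48 h columns, without overlap. RVE8, a clock activator of the same family, was at 16 to 44.8 and 102 to 184 CPM. Over the 6 conditions the log2 fold changes of 48 h against 3 h were 2.29 ± 0.11 for CCA1, 4.82 ± 0.13 for LHY and 2.19 ± 0.10 for RVE8 (adjusted p = 1.88e-09, 1.67e-11 and 1.17e-09). Of the 11 clock genes, 3 rose and 4 fell, beside 10% of all genes. Their part in the fall of CBF3 and the COR15 genes was not tested, and length of treatment, plant age and hour of the day cannot be told apart.

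**Figure D4:**
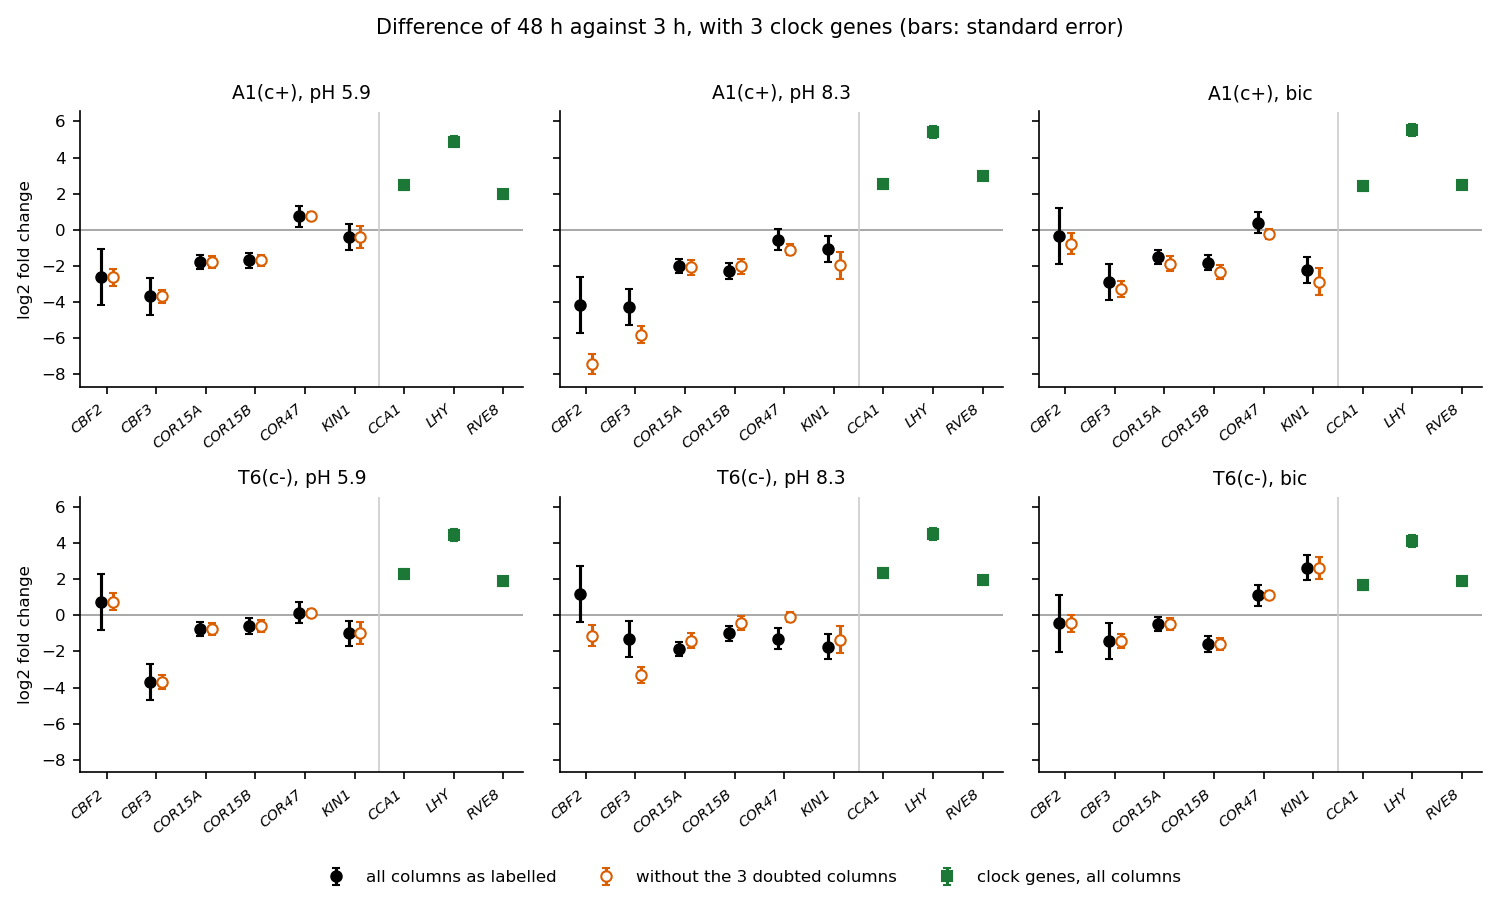
Log2 fold change of 48 h against 3 h (vertical axis) for the 6 genes in each deme and treatment, with standard errors, for all columns (filled circles) and without the 3 columns in doubt (open circles), beside the clock genes CCA1, LHY and RVE8 (squares, all columns). CBF3, COR15A and COR15B lie below 0 in all 6 panels and the plotted clock genes above 0. The clock genes that fell between the times are not plotted.

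Other genes of the pathway were read from lists. Of 25 further cold-regulated genes, 14 rose and 2 fell in T6(c-) after 48 h of bic against pH 5.9 (median log2 fold change 1.75), beside 18.9% of all genes called, and 16 rose and 1 fell against pH 8.3, beside 20.4%. In the other 3 settings of bic against pH 5.9 none was called. RCI2A, a small membrane protein gene, went from 10.9 and 11.6 CPM at pH 5.9 to 71.3 and 78.0 CPM (2.73 ± 0.36, adjusted p = 6.85e-05), ELIP1, which encodes an early light-inducible protein of the thylakoid, from 59.3 and 61.7 to 824 and 999 CPM (3.91 ± 0.62, adjusted p = 0.000248), and KIN2 from 153 and 146 to 655 and 398 CPM (1.77 ± 0.35, adjusted p = 0.00125). ERD10, the neighbour of COR47, rose as well (1.74 ± 0.25, adjusted p = 0.000108), from 309 and 304 to 1175 and 884 CPM. The response to 48 h of bic was lower in A1(c+) for 7 of the 25 genes and higher for none, beside 4.15% of all genes, ERD10 (-1.97 ± 0.35, adjusted p = 0.00731) and RCI2A (-2.84 ± 0.51, adjusted p = 0.00833) among them. Between times, averaged over conditions, 3 of the 25 rose and 7 fell, beside 10% of all genes.

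Of the upstream regulators of the CBF genes, 16 of 17 had values, of which 3 rose and 1 fell under bic for 48 h in T6(c-). These 4 of 16 stand beside 18.9% of all genes called, and nothing about the list is read from them. OST1, the abscisic acid-activated kinase that stabilises the CBF activator ICE1, went from 12.3 and 11.7 to 34.0 and 37.5 CPM (1.57 ± 0.24, adjusted p = 0.000181), and PIF3, a phytochrome-interacting factor that represses CBF genes, from 10.7 and 11.2 to 64.1 and 75.4 CPM (2.67 ± 0.43, adjusted p = 0.000285). PIF4, a related repressor, was lower at 48 h than at 3 h averaged over the conditions (-1.11 ± 0.14, adjusted p = 8.51e-06). The 3 paralogues of the CBF1 to CBF3 genes on the list (CBF4, DDF1 and DDF2) were not analysed here.

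With all columns, abscisic acid-responsive genes were called for bic against pH 5.9 only where members were, in T6(c-) at 48 h. All 10 on the list rose in T6(c-) after 48 h of bic against pH 5.9, with a median log2 fold change of 3.53, beside 18.9% of all genes called. RD29B, a classic abscisic acid marker, went from 10.9 and 10.4 to 458 and 616 CPM (5.64 ± 1.04, adjusted p = 0.000712), and NCED3, which encodes a key enzyme of abscisic acid synthesis, from 7.26 and 7.32 to 74.1 and 98.2 CPM (3.55 ± 0.63, adjusted p = 0.000547). RD22 rose by 1.74 ± 0.24 (adjusted p = 7.89e-05). In the other 3 settings of bic against pH 5.9 none of the 10 was called, and the response was lower in A1(c+) for 4 of them at 48 h, beside 4.15% of all genes. In A1(c+) at 48 h RD29B read 146 and 104 CPM at pH 5.9 and 119 and 80.1 CPM under bic. NCED3 read 15.6 and 17.0 CPM, then 26.1 and 19.2 CPM, in these groups. In the same T6(c-) comparison 6 of 7 leaf marker genes fell (median -1.81), and their summed level was 16080 and 11342 CPM under bic against 42616 and 43421 CPM at pH 5.9. Their part and that of abscisic acid in the rise of the members was not tested. In RNA from whole leaves, fewer cells of a type and less RNA per cell cannot be told apart.

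The genes most like the COR and KIN members over the 24 columns, by Pearson r of log2 values with the mean z-score of the 4 members, were CORI3 (0.94), AT2G05260 (0.89), COR413-PM1 (0.89), AT4G25660 (0.89) and AT5G17460 (0.89). For the mean of CBF2 and CBF3 they were AT5G43830 (0.85), AT5G42460 (0.83), ENP (0.83), AT1G12845 (0.82) and PUB18 (0.82). CORI3 is named for its induction by coronatine, and COR413-PM1 encodes a cold-regulated membrane protein that is also on the list of further cold-regulated genes. CBF3 had an r of 0.65 with COR15A and 0.64 with COR15B but -0.02 with COR47, and CBF2 had an r of -0.15 with COR47. These are descriptions over columns that share demes, treatments and times.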

How the data were processed

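Leaf RNA of 12 groups, 72 libraries in all, was measured by unstranded paired-end sequencing. The authors deposited 24 columns of log2 CPM, 1 per biological replicate, with 0.5 reads added to each count and technical replicates summed, for 18603 genes with over 1 CPM in at least 6 columns. The methods name TopHat, Bowtie and DESeq 1.18.0, while the submitters' processing notes name Trim Galore, Salmon, DESeq2 and TAIR10; which made the table is not settled. Reads were recovered as whole numbers (within 0.05) for 100% of values under 10000 reads. Library totals were 63.5 to 120.6 M reads (median 99.7), so replicates rather than depth set the precision.

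All 24 columns entered one limma 3.58.1 model (R 4.3.3) of 12 group means on the deposited log2 values (12 residual and 2.54 prior degrees of freedom), with a trend of variance on level, and p-values (two-sided) were adjusted by Benjamini-Hochberg over all genes within each of 28 comparisons and 4 means of comparisons. With 2 columns a group, p-values measure the spread between columns of the same group, pooled for each gene over all 12 groups. A wide pair in any group thus enlarges the error of that gene in every comparison. The chain was tested on simulated data for bic against pH 5.9 in T6(c-) at 48 h, where 49 of 100 genes changed 2-fold and all 100 changed 4-fold were found with 1 false call among 18603 genes. The simulated replicates had a small spread common to all genes and no column in doubt, so these counts do not give the power in the real columns. There, CBF2 at 6.25-fold for pH 8.3 in A1(c+) at 3 h was not called (adjusted p = 0.292 with limma). Its pooled error was 1.55 with all columns and 0.47 without the columns in doubt, none of which is in that comparison. The members, lists and tests were chosen with earlier results of these data known. Genes named besides the members are the 3 of each list called in most of the 28 comparisons and the 5 most like each set of members, and ERD10, the neighbour of COR47, was added after values were seen. Alternatives were 2 other scalings, a pseudocount of 1 CPM, a mean of at least 10 CPM, the columns in doubt left out, other sets of samples in the fit, a replicate block, no trend, no fold change limit, and each column left out.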

Additional observations from a re-analysis of the deposited data

Results flagged for a closer look

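The response of KIN1 to 48 h of bic differed between the demes by the interaction test, at -5.26 ± 0.99 on the log2 scale for A1(c+) less T6(c-) (adjusted p = 0.00946 with limma). Both T6(c-) columns under bic lay above both at pH 5.9, and the A1(c+) columns of the 2 treatments overlapped. For KIN2, the tandem copy of KIN1, the bic columns lay above the pH 5.9 columns in both demes. The T6(c-) pH 5.9 columns differed by less than any other pair, and both T6(c-) bic columns had 29 and 46 of 117 deme-separating genes nearer to A1(c+). The part of these in the difference was not tested.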

How the results depend on the processing

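With all columns there were 27 calls of members over the 28 comparisons, of which 3 were kept in every alternative in which they were tested (KIN1 under bic against pH 5.9 and against pH 8.3 in T6(c-) at 48 h, and COR15A between times in A1(c+) at pH 5.9). None of the 27 changed direction. Only the groups compared in the fit gave 8 calls for treatment against pH 5.9 (4 with all groups), 1 for bic against pH 8.3 (4), 9 between demes (4), 9 between times (14) and 4 interactions (1). Without the columns in doubt these were 14, 8, 12, 20 and 5, and all 27 calls were kept. With each time fitted separately there were 7 calls between demes and 0 interactions (3 of 24 at an unadjusted p under 0.05 with limma). At a mean of at least 10 CPM, which leaves 3 members, there were 1 call between demes, 8 between times and 0 interactions (1 of 12 at an unadjusted p under 0.05). Leaving out each column in turn gave 1 to 7 calls for treatment, 3 to 5 for bic against pH 8.3, 2 to 7 between demes, 10 to 18 between times and 1 to 2 interactions, and these fits kept 572 single calls and lost 76. With a replicate block there were 4, 4, 3, 15 and 1 calls. Deviations of same-numbered columns from their group means correlated from -0.42 to 0.44 (median -0.01) in 66 pairs of groups. This range cannot show whether samples of the same number share a batch. The block ended 1 call (COR47 between demes under bic at 48 h).

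Depth limited only the low columns of CBF2 (5 reads at least), CBF3 (32) and KIN1 (34). The limit is the 2 columns a group, of which 3 are in doubt and the T6(c-) controls are near copies of each other. Mapping of the 2 demes to Col-0 gene models, and the split of reads between tandem copies, were not tested.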
